A study of Mus musculus with 4 samples.

Results

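The renin-angiotensin system was followed through 9 genes in mouse kidney: Ren1, Agt, Ace, Agtr1a, Agtr1b, Agtr2, Mas1, Enpep and Atp6ap2. Every probe whose gene name in the scanner files equalled one of these symbols was taken, which gave 12 probes of the 56605 on the array, and 9 of its 37074 gene entries. Of these 9 genes, 8 had a probe well above background on all 4 arrays, and Agtr1b had none on any array. The array held 24638 gene entries with a probe well above background on at least 1 array.

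The mice were of ICR, an outbred stock, and received vancomycin, a glycopeptide antibiotic that can injure the kidney at high exposure, or saline. Injections were given at zeitgeber time 14 (ZT14) or 2 (ZT2), in hours after lights on, and kidneys were prepared 1 day later, so that the 4 groups were vancomycin at ZT14, vancomycin at ZT2, saline at ZT14 and saline at ZT2. Each group had 1 single-colour array, and the labels give no genotype, sex, age or dose and do not say whether a sample was a single mouse or a pool. A difference at a single injection time is therefore a value without a test. A joint limma fit of both factors on the 4 arrays left 1 residual degree of freedom. Its residual is how far the vancomycin difference at ZT14 lay from that at ZT2. Its p-values set the mean difference against this residual, moderated by a variance shared over all genes (1.86 prior degrees of freedom). They do not measure the spread between animals.

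In the renin-angiotensin system, renin released by juxtaglomerular cells of the kidney arterioles cuts angiotensinogen to angiotensin I, and angiotensin-converting enzyme turns this into angiotensin II. Angiotensin II raises blood pressure and sodium retention through its type 1 receptors, while the type 2 receptor and the MAS receptor, which binds a shorter angiotensin peptide, are known mainly for opposing actions. The kidney also makes its own angiotensinogen in the proximal tubule, where angiotensin-converting enzyme and aminopeptidase A line the brush border.

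Probes are shown for Ren1 and Mas1, the members past 2-fold with vancomycin, with Ren2, for Agt, the substrate, and for Enpep, whose probes read stretches far apart in the transcript, as sequences of the sense strand in the array files. The Ren1 probe lay in mm9 on chromosome 1 at 135250782 to 135250841 and is given in full, as is the second Enpep probe, on chromosome 3, which spans an intron between 129002052 and 129006662. The others are given as stretches of 30 bases. Capitals mark the hexamer AATAAA, the usual signal for addition of the poly(A) tail, which 2 of the 12 probes held on the strand shown and 1 on the other, against 9.77% and 3.85% of all probes of 60 bases. The Mas1 probes lay on chromosome 17, at 13033943 to 13034002 (probe A) and 13034316 to 13034375 (probe B), with 313 bases between them, so that they read separate stretches of the same transcript. The Agt probe lay on chromosome 8 at 127080661 to 127080720 and the first Enpep probe on chromosome 3 at 128972910 to 128972969. A probe for Ren2, a tandem copy of the renin gene found in some mouse strains, is listed as unmapped in mm9.
Ren1: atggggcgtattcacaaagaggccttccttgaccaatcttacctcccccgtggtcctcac
Ren2: aaggaaaaaccgAATAAAgatttcatgttt
Agt: gcgctgaccgagAATAAAtgatgagcagca
Mas1 probe A: ttgtcaaagttcAATAAAtatccatctctc
Mas1 probe B: agcttgtgcttggaatgcaatttaagcaca
Enpep probe A: gctaagtgttcttcatgggaaagtctttac
Enpep probe B: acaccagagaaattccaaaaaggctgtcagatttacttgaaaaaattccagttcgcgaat

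Levels are given as relative signal, which is the background-subtracted signal divided by the array's own 75th percentile, so that 1 is that percentile. Differences are in log2 units of this signal. Probes differ in how strongly they bind, so a level was compared between arrays for the same probe and never between genes. Sums of relative signal over a marker list are set mainly by its brightest probes. Where both arrays of a treatment or time lay above or below the rest, the share of all genes that do so was not counted. Each member probe had 1 spot per array. Among 300 probes printed in 10 spots, the median SD between spots was 0.041 to 0.049 log2 units on the 4 arrays, a technical spread that holds nothing of the spread between animals. Between 60.6% and 64.7% of 59305 spots were well above background, and 0 were saturated. The kidney markers Umod, Slc12a1, Slc12a3, Aqp2, Slc34a1 and Cdh16 were well above background on all 4 arrays. The ZT14 arrays shared a slide and so did the ZT2 arrays, and saline stood at the first position of each slide and vancomycin at the second, so slide cannot be told apart from injection time, nor position from treatment.

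Mas1, the MAS receptor gene, was lower with vancomycin at both injection times and on both of its probes, and Ren1 was lower mainly at ZT2. Over 2-fold or more, 1 of the 8 measured members was lower at ZT14 and 2 were lower at ZT2, while 0 were higher at either time. Among all genes well above background on the arrays compared, 2.34% were lower by 2-fold or more at ZT14 and 3.1% at ZT2, and 1.21% and 1.4% were higher. The median difference over the 8 members was -0.25 at ZT14 and -0.15 at ZT2, against 0.02 over 22268 genes and 0.00 over 21244 genes. By limma over both times, 0 members passed an adjusted p of 0.05 (the share over all genes was 0%), and 1 member, Mas1, had an unadjusted p under 0.05 with a lower signal, as did 5.35% of all genes. With a higher signal it was 0 members, against 3.21% of all genes.

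**Figure D1:**
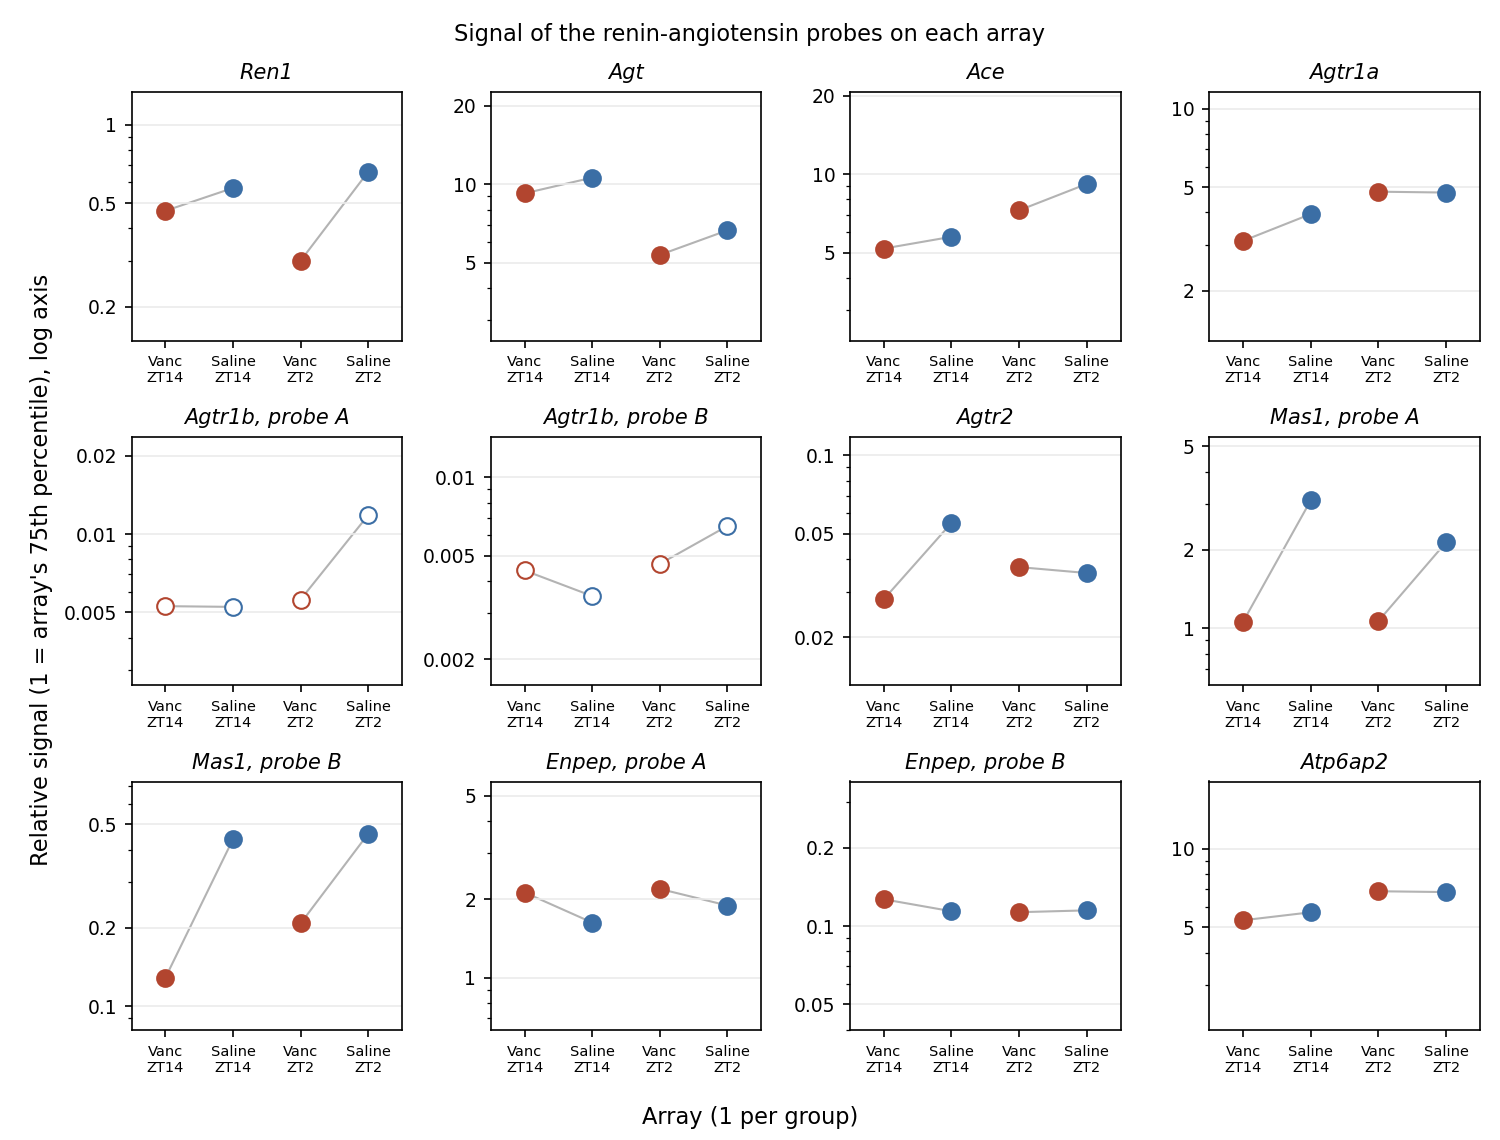
Relative signal (log axis, 1 is the array's 75th percentile) of the 12 member probes on each of the 4 arrays, with vancomycin in red and saline in blue, and a grey line joining the arrays of a single injection time. Open circles are spots not well above background, as for both Agtr1b probes. Both Mas1 probes lay lower with vancomycin at both times, and Ren1 had its lowest point, 0.3004, with vancomycin at ZT2.

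Agt encodes angiotensinogen, the substrate of renin and the only source of the angiotensin peptides. Its relative signal was 9.23 with vancomycin and 10.6 with saline at ZT14, and 5.36 with vancomycin and 6.66 with saline at ZT2. It was thus slightly lower with vancomycin at both times, by -0.20 and -0.31 in log2 units, and both ZT14 arrays lay above both ZT2 arrays. The vancomycin difference over both times was -0.26 ± 0.14 (SE, n = 2 arrays per treatment; limma adjusted p = 0.70). The 11 proximal tubule markers, of the cells that make Agt within the kidney, were all well above background on the 4 arrays and had median differences of 0.00 at ZT14 and 0.12 at ZT2. Their summed relative signal was 1448 with vancomycin and 1416 with saline at ZT14, and 1054 and 972.4 at ZT2. Kap alone gave 539 with vancomycin and 525 with saline at ZT14, and 245 and 243 at ZT2. Liver and adipose tissue are known for making Agt as well. Of 6 liver markers 5 were kept, and their summed relative signal was 3.42 with vancomycin and 6.09 with saline at ZT14, and 2.69 and 2.52 at ZT2. That of the 10 adipose markers was 11.2 with vancomycin and 9.65 with saline at ZT14, and 20.9 and 43.6 at ZT2. At ZT14 Fabp4 alone gave 9.98 with vancomycin and 8.43 with saline. At ZT2 5 of the 9 measured on both arrays were lower by 2-fold or more with vancomycin and 1 was higher, beside 3.1% and 1.4% of all genes. Agt was lower on both ZT2 arrays, where the proximal tubule sums were also lower and the adipose sums were higher. The part of any of these cells or tissues in the Agt signal was not tested. In whole kidney tissue, fewer cells of a type and less RNA per cell cannot be told apart.

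Ren1 encodes renin, the protease that starts the cascade. Its relative signal was 0.467 with vancomycin and 0.571 with saline at ZT14, and 0.3004 with vancomycin and 0.660 with saline at ZT2. The vancomycin array at ZT2 was the lowest of the 4 and stood apart from the other three, which lay within 0.467 to 0.660. The difference was -0.29 at ZT14 and -1.14 at ZT2, which is 1.22-fold and 2.20-fold lower with vancomycin. Over both times it was -0.71 ± 0.28 (SE, n = 2 arrays per treatment), with a limma adjusted p of 0.64. With normexp background correction the ZT2 difference was -0.86, under the 2-fold size. The difference at ZT14 minus that at ZT2 was 0.84, a value with no test, since no degrees of freedom are left.

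The Ren2 probe was also lower with vancomycin, mainly at ZT2. It had a relative signal of 19.1 with vancomycin and 20.1 with saline at ZT14, and 7.91 with vancomycin and 13.6 with saline at ZT2. Its differences were -0.07 and -0.78. Both renin genes have nearly the same sequence, so each probe may also read transcripts of the other gene, which was not tested. Whether the animals carried Ren2 is not given by the labels.

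Renin-producing cells are modified smooth muscle cells of the afferent arteriole, and smooth muscle markers were lower beside Ren1 at ZT2. Of 9 smooth muscle and stromal markers, 4 were lower by 2-fold or more with vancomycin at ZT2, beside 3.1% of all genes, with a median of -0.88. At ZT14 0 of these markers were, beside 2.34% of all genes, with a median of -0.20. Their summed relative signal was 40.9 with vancomycin and 40.7 with saline at ZT14, and 39.1 with vancomycin and 81.5 with saline at ZT2, so that the saline array at ZT2 stood apart. Acta2, smooth muscle actin, had 0.08 at ZT14 and -1.79 at ZT2. On that same saline array Ren1 was 0.660, against 0.571 on the saline array at ZT14. On the vancomycin arrays the marker sums were close, 40.9 at ZT14 and 39.1 at ZT2, while Ren1 was 0.467 and 0.3004. The part of these markers in the Ren1 difference was not tested.

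Atp6ap2 encodes the prorenin receptor, which is also an accessory subunit of the vacuolar proton pump. It had a relative signal of 5.32 with vancomycin and 5.71 with saline at ZT14, and 6.88 with vancomycin and 6.83 with saline at ZT2. The differences were -0.10 at ZT14 and 0.01 at ZT2, and the ZT2 value alone was under the technical spread of a difference, 0.069. Over both times the difference was -0.05 ± 0.14 (SE, n = 2 arrays per treatment; limma adjusted p = 0.96).

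Ace encodes angiotensin-converting enzyme, found on endothelium and on the proximal tubule brush border. Its relative signal was 5.18 with vancomycin and 5.75 with saline at ZT14, and 7.26 with vancomycin and 9.17 with saline at ZT2. It was lower with vancomycin by -0.15 and -0.34, and both ZT2 arrays lay above both ZT14 arrays. Over both times the vancomycin difference was -0.24 ± 0.15 (SE, n = 2 arrays per treatment; limma adjusted p = 0.72). All 10 endothelial markers were also lower with vancomycin at both times, as were 47.7% of all genes at ZT14 and 49.3% at ZT2. These markers had medians of -0.31 at ZT14 and -0.35 at ZT2. Their summed relative signals were 26.8 with vancomycin and 33.9 with saline at ZT14, and 21.5 and 28.0 at ZT2. Of the 11 proximal tubule markers, 5 were lower with vancomycin at ZT14 and 3 at ZT2, with medians of 0.00 and 0.12. The part of either set of markers in the Ace difference was not tested.

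Enpep encodes aminopeptidase A, which trims angiotensin II to angiotensin III, and was the member with higher signal under vancomycin at both times. Its brighter probe had a relative signal of 2.12 with vancomycin and 1.63 with saline at ZT14, and 2.19 with vancomycin and 1.89 with saline at ZT2. Both vancomycin arrays lay above both saline arrays. The differences were 0.38 and 0.21, and the difference over both times was 0.30 ± 0.14 (SE, n = 2 arrays per treatment; limma adjusted p = 0.68). The dimmer probe, which reads a stretch further from the transcript's end, differed by 0.15 at ZT14 and by -0.02 at ZT2, so the higher signal at ZT2 was not seen on both probes.

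Agtr1a encodes the main receptor through which angiotensin II constricts vessels and retains sodium in mouse kidney. Its relative signal was 3.11 with vancomycin and 3.94 with saline at ZT14, and 4.81 with vancomycin and 4.77 with saline at ZT2. The ZT2 arrays were nearly equal and lay above both ZT14 arrays. The differences were -0.34 at ZT14 and 0.01 at ZT2, and over both times -0.17 ± 0.17 (SE, n = 2 arrays per treatment; limma adjusted p = 0.84).

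Agtr1b encodes the other type 1 receptor of rodents, which is known mainly from the adrenal gland and pituitary. Its brighter probe had a relative signal of 0.00529 with vancomycin and 0.00525 with saline at ZT14, and 0.00561 with vancomycin and 0.0118 with saline at ZT2. None of the 8 readings on its 2 probes was well above background, so no fold is given. The vancomycin arrays each detected 9 of the 10 adrenal markers, beside 62.2% of all spots at ZT14 and 60.6% at ZT2. The saline arrays detected 5 each, beside 64.7% and 62.2% of all spots. The summed relative signal of the adrenal markers was 1.32 with vancomycin and 0.725 with saline at ZT14. At ZT2 it was 6.49 with vancomycin, the highest of the arrays, and 0.676 with saline. Cyp11b2, the aldosterone synthase gene of the adrenal zone where Agtr1b is known from, was not well above background on any array.

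Agtr2 encodes the type 2 receptor, which is abundant in the fetal kidney and scarce in the adult. It lay close to the detection limit, with a relative signal of 0.0281 with vancomycin and 0.0551 with saline at ZT14, and 0.0373 with vancomycin and 0.0354 with saline at ZT2. The saline array at ZT14 stood above the other three. The difference of -0.97 at ZT14 was just under 2-fold, and became -0.22 with normexp background correction and -0.58 with a pseudocount of 16. At ZT2 it was 0.08. Over both times it was -0.45 ± 0.34 (SE, n = 2 arrays per treatment; limma adjusted p = 0.77).

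Mas1 showed the largest difference of the 8 members at ZT14 and in the fit over both times. Probe A had a relative signal of 1.06 with vancomycin and 3.10 with saline at ZT14, and 1.07 with vancomycin and 2.14 with saline at ZT2. Both vancomycin arrays were nearly equal and lay below both saline arrays. The differences were -1.55 at ZT14 and -1.003 at ZT2, which is 2.92-fold and 2.00-fold lower with vancomycin.

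Probe B of Mas1, shown above and dimmer, gave a matching picture. It had a relative signal of 0.129 with vancomycin and 0.438 with saline at ZT14, and 0.208 with vancomycin and 0.460 with saline at ZT2. The differences were -1.77 and -1.14. In the fit over both times the difference of probe A was -1.27 ± 0.21 (SE, n = 2 arrays per treatment), or 2.42-fold lower, with an unadjusted p of 0.010 and a limma adjusted p of 0.52, and the smallest adjusted p of any gene was also 0.52. The ZT2 difference of probe A lay at the 2-fold size itself, and it was -0.97 with centring on the median and -0.90 with normexp background correction. Leukocyte markers were also lower with vancomycin in 5 of 7 at ZT14 and 6 of 7 at ZT2, beside 47.7% and 49.3% of all genes. They had medians of -0.65 and -0.67. Their summed relative signal was 36.1 with vancomycin and 35.2 with saline at ZT14, and 23.5 and 26.9 at ZT2. Itgam alone gave 26.5 with vancomycin and 23.8 with saline at ZT14, and 16.1 and 15.5 at ZT2. The summed relative signal of the 6 podocyte markers was 7.45 with vancomycin and 6.21 with saline at ZT14, and 9.85 and 10.72 at ZT2. The part of these markers, or of the endothelial ones, in the Mas1 difference was not tested.

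**Figure D2:**
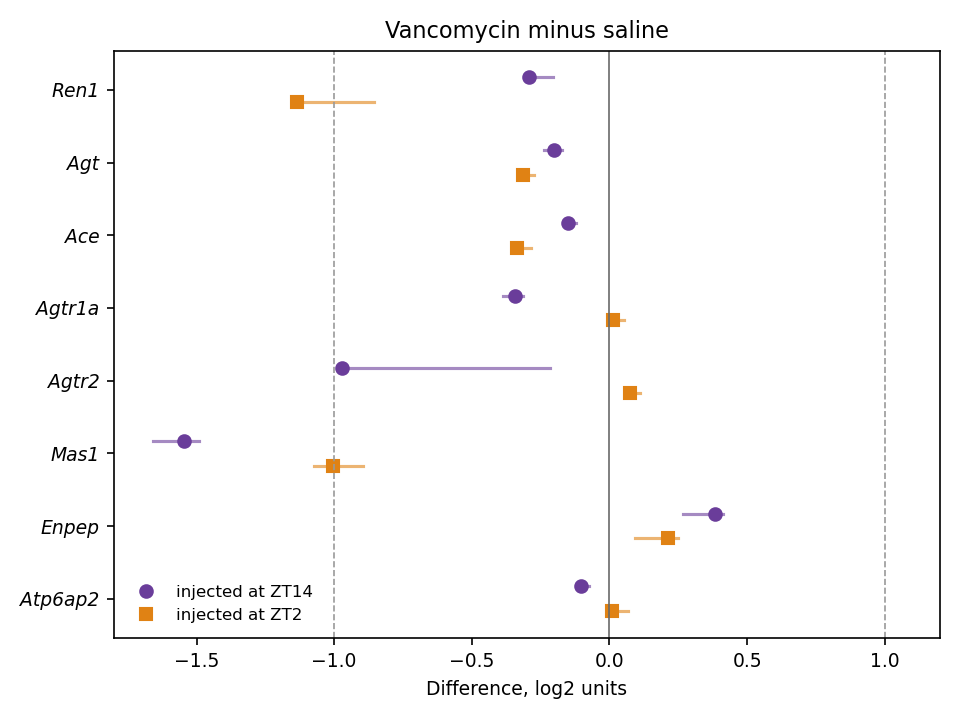
Difference of vancomycin minus saline (log2 units) for the 8 members well above background, by the brightest probe, with circles for ZT14 and squares for ZT2. Thin lines span the values under 8 other ways of processing, and dashed lines mark 2-fold. Mas1 lay at -1.55 and -1.003, Ren1 at -0.29 and -1.14, and the Agtr2 value at ZT14 had the widest span.

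Between injection times, 0 of 8 members differed by 2-fold or more on the vancomycin arrays or on the saline arrays. Over all genes, 8.36% were higher and 2.8% lower by 2-fold or more at ZT14 with vancomycin, and 7.3% and 3.05% with saline. Agt was higher at ZT14 than at ZT2, by 0.79 with vancomycin and 0.67 with saline. Ace was lower at ZT14, by -0.49 with vancomycin and -0.67 with saline. In the fit over both treatments, ZT14 minus ZT2 was 0.73 ± 0.14 for Agt (SE, n = 2 arrays per time; limma adjusted p = 0.12) and -0.58 ± 0.15 for Ace (SE, n = 2 arrays per time; limma adjusted p = 0.15). By limma, 0 members passed an adjusted p of 0.05, as did 0% of all genes. At an unadjusted p under 0.05, Agt was the single member that was higher and Ace the single one that was lower, beside 18% and 9.27% of all genes, so that the members' shares were near those of the array.

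With other variance or background settings these calls differed. With an intensity trend and robust prior, 2 members, Agt and Ace, passed an adjusted p of 0.05 (0.017 and 0.034), among 3396 genes in all. With normexp background correction Agt passed (adjusted p = 0.025), among 3008 genes. Slide cannot be told apart from injection time in any of these fits.

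The other members showed smaller or unlike time differences. Agtr1a was lower at ZT14 by -0.63 with vancomycin and -0.27 with saline, and Atp6ap2 by -0.37 and -0.26. Ren1 was higher at ZT14 with vancomycin, by 0.64, and lower with saline, by -0.21. The Ren2 probe, not a member, was higher at ZT14 with both, by 1.28 (2.42-fold) with vancomycin and 0.57 with saline. The sign with saline thus differed between the renin probes. Agtr2 had -0.41 with vancomycin and 0.64 with saline. Enpep had -0.05 and -0.22. Mas1 had -0.01 with vancomycin and 0.54 with saline on probe A, but -0.69 and -0.07 on probe B, so its time difference was not shared by the probes.

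**Figure D3:**
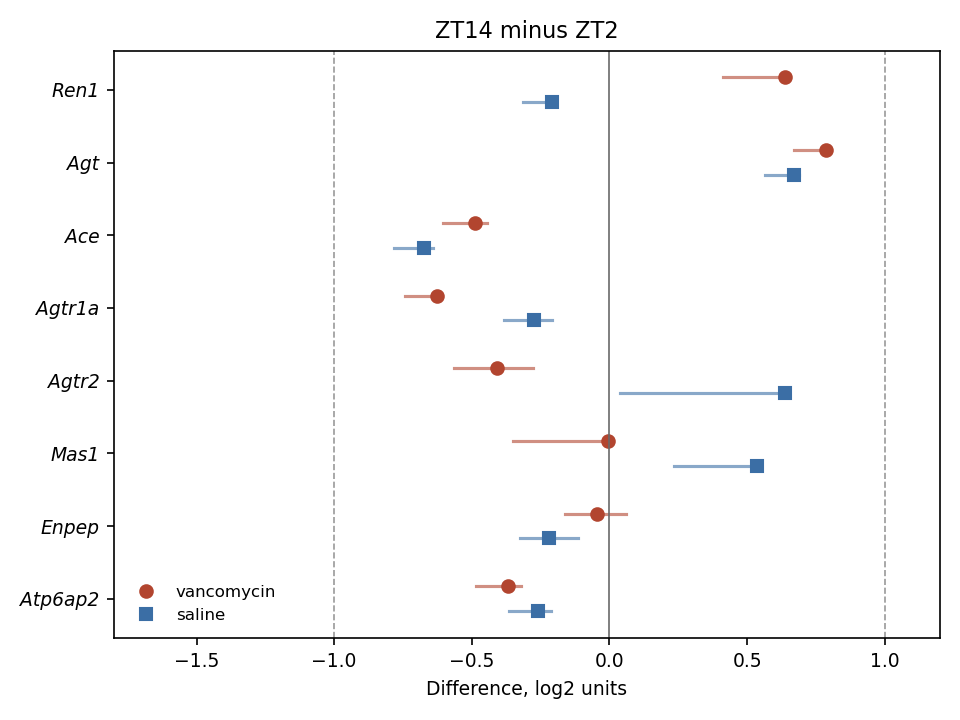
Difference of ZT14 minus ZT2 (log2 units) for the 8 members, by the brightest probe, with circles for vancomycin and squares for saline. Thin lines span 8 other ways of processing, and dashed lines mark 2-fold. Agt lay above 0 for both treatments, at 0.79 and 0.67, and Ace below 0 for both, at -0.49 and -0.67.

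Other genes of angiotensin processing and action were counted in the same way. Of 25 such genes, 21 were kept, and among those well above background on both arrays 0 of 19 were lower or higher by 2-fold or more at ZT14, and 1 of 20 was higher and 0 lower at ZT2. Over all genes 1.21% were higher and 2.34% lower at ZT14, and 1.4% and 3.1% at ZT2, so these counts were near the share of the array. The median of the list was -0.05 at ZT14 and -0.07 at ZT2, against 0.02 and 0.00 over all genes. By limma over both times 0 of the 21 passed an adjusted p of 0.05, and 0 had an unadjusted p under 0.05, against 3.21% of all genes with higher and 5.35% with lower signal.

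Among these, Mme, the peptidase neprilysin, had a vancomycin minus saline difference of 0.13 at ZT14 and -0.11 at ZT2 on its brightest probe. Its 3 other probes were higher with vancomycin at both times, by 0.08 to 0.74 at ZT14 and 0.23 to 0.41 at ZT2, so the sign at ZT2 differed between probes. Agtrap, an inhibitor of type 1 receptor signalling, had 0.22 at ZT14 and -0.30 at ZT2, and its other probes had 0.05 and -0.04 at ZT14 and -0.45 and -0.59 at ZT2. Nr3c2, the mineralocorticoid receptor that answers to aldosterone, had a relative signal of 1.31 with vancomycin and 2.07 with saline at ZT14, and 1.66 with vancomycin and 1.96 with saline at ZT2, a difference of -0.66 and -0.24. Its other probes had -0.93 and -1.13 at ZT14, and -0.14 and 0.38 at ZT2, so all 3 were lower at ZT14 and the sign differed at ZT2. Prcp, a carboxypeptidase that cuts angiotensin II, was the gene past 2-fold at ZT2, with a difference of 1.00, and had -0.09 at ZT14. Its dimmer probes had 0.11 and 0.55 at ZT14, and 0.19 and 0.65 at ZT2, so the sign differed between probes at ZT14 and the size at ZT2. Bdkrb2, the bradykinin receptor gene of kidney, was lower by at least 1.04 log2 units at ZT14, a bound not counted above, since its vancomycin spot was not well above background, and had 0.20 at ZT2.

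Nos1 and Ptger4 were lower with vancomycin at both times among the genes of juxtaglomerular cells and of the control of renin release. Of 24 such genes, 23 were kept, with medians of 0.12 at ZT14 and -0.06 at ZT2. By 2-fold or more, 1 of 22 was higher and 0 lower at ZT14, and 0 of 21 were higher and 3 lower at ZT2, beside 1.21% and 2.34% of all genes at ZT14 and 1.4% and 3.1% at ZT2. Over both times 0 passed limma at an adjusted p of 0.05, and 2, Nos1 and Ptger4, had an unadjusted p under 0.05, both with lower signal, as did 5.35% of all genes.

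Nos1, the nitric oxide synthase of the macula densa, had a relative signal of 0.0603 with vancomycin and 0.116 with saline at ZT14, and 0.0396 with vancomycin and 0.129 with saline at ZT2. The differences were -0.94 and -1.71 (-0.54 at ZT2 on a second probe, which was not well above background with vancomycin at ZT14), and both vancomycin arrays lay below both saline arrays. Ptger4, a prostaglandin receptor through which renin release is raised, had 0.523 with vancomycin and 0.994 with saline at ZT14, and 0.520 with vancomycin and 1.45 with saline at ZT2. The differences were -0.93 and -1.47, and a second probe gave -0.72 and -1.43. Over both times the difference was -1.33 ± 0.26 for Nos1 and -1.20 ± 0.21 for Ptger4 (SE, n = 2 arrays per treatment; limma adjusted p = 0.52 each).

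Others had opposite signs at the 2 times. Pappa2, a protease of the macula densa region, had 0.47 at ZT14 and -1.55 at ZT2, on the single probe of its 4 that was well above background. Aldh1a7, an aldehyde dehydrogenase gene, had 1.79 at ZT14 and -0.94 at ZT2. Gja5, the connexin of the juxtaglomerular cells, had 0.59 at ZT14 and -0.54 at ZT2 on its brightest probe, while a dim probe had -0.01 and 0.54. Akr1b7, a gene expressed with renin in juxtaglomerular cells, had -0.16 at ZT14 and 0.56 at ZT2. Ptgs2, the inducible cyclooxygenase of the macula densa, was well above background on a single array, that of saline at ZT2.

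**Figure D4:**
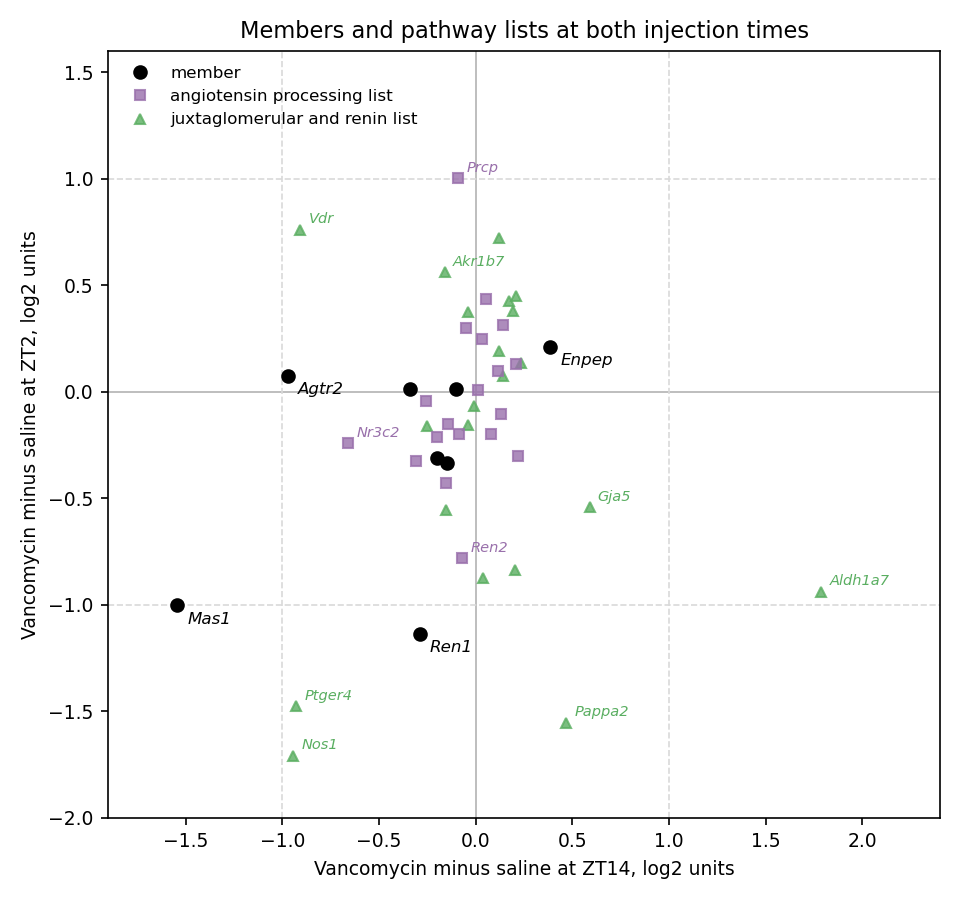
Vancomycin minus saline at ZT14 (x axis) against that at ZT2 (y axis), in log2 units, for the 8 members (circles), the angiotensin processing list (squares) and the juxtaglomerular and renin list (triangles), for genes well above background on all arrays compared. Dashed lines mark 2-fold. Mas1, Nos1 and Ptger4 lay in the lower left, while Ren1 lay low on the ZT2 axis and near 0 on the ZT14 axis.

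The genes whose pattern over the 4 arrays was most like that of a member were named by the smallest Euclidean distance between values centred on each gene's mean, among 13936 genes with an ordinary symbol and well above background on all 4 arrays. For Ren1 the nearest included Amica1, Cftr, Dhx58 and Col1a2, at distances of 0.072 to 0.14 log2 units, and 0.165% of the genes lay within 0.2. For Agt they were Sema6b, Eif6, Fbxw15, Kcnip1 and Mettl20, at 0.049 to 0.076, with 1.21% within 0.2. For Ace they were Nedd1, Aldh1a3, Tango2, Ctso and Tada1, at 0.034 to 0.062, with 1.29% within 0.2. With 4 arrays this nearness describes these arrays alone.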

How the data were processed

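Total RNA of mouse kidney was amplified, labelled with Cy3 and hybridized to Agilent arrays. The processed intensity of each spot was deposited as Agilent Feature Extraction made it, in version 10.7.1.1 going by the file headers and 9.5.1.1 going by the submitters' processing notes, with background and spatial trends removed and no normalization between arrays. A second table deposited by the authors holds linear intensity per probe, quantile normalized as its equal quartiles show, and served as an alternative. Coordinates are those of the files, in mm9.

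From the log2 intensity of each spot the array's 75th percentile was subtracted, outlier spots were left out and spots of a probe averaged. Probes needed 50% of spots well above background on 1 array or more, and the brightest probe stood for a gene. For a list gene well above background on 1 of 2 arrays compared, the difference was called a bound. It used the other array's signal, or that array's lowest signal well above background where this was higher. The limma fits used the signal as measured. limma 3.58.1 in R 4.3.3 fitted treatment and injection time over all genes with Benjamini-Hochberg adjustment. Its test on simulated data used changes larger than that of any member, so it does not show how the fit performs at their size. Arrays have no read depth, and having 1 per group limits the precision. Alternatives were centring, normexp (offset 50), quantile normalization, the authors' table, 2 filters, a pseudocount of 16, the mean over probes, no time term and an intensity trend. All members were named. Of the lists, genes past 2-fold at either time were named, besides a fixed few, and some genes that these rules name are not reported here. Members, lists and rules were chosen with earlier results of these data known.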

Additional observations from a re-analysis of the deposited data

Results flagged for a closer look

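Agtr1a had a vancomycin minus saline difference of -0.34 at ZT14 and 0.0112 at ZT2, Agtr2 of -0.97 and 0.0755, and Atp6ap2 of -0.10 and 0.0107. In each case the sign was opposite at the 2 injection times, with 1 array per group, and the difference between times was not tested. The values at ZT2 were under or close to the technical spread of a difference, 0.069 log2 units, and that of Agtr2 rested on a probe near the detection limit. With normexp background correction the ZT2 value of Atp6ap2 was -0.0034, so its sign was then the same at both times.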

How the results depend on the processing

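Of 408 values of single members under the alternatives, 401 kept their sign. Many of these could not change, so the count does not measure robustness. The 2 filters left the member values as they were, as did the mean over probes for members with a single probe. Leaving out the time term or adding an intensity trend did not alter the fitted difference. The count of members lower by 2-fold or more at ZT2, 2 as reported, was 1 (Ren1) with the authors' values, centring on the median, a pseudocount of 16 or quantile normalization, 0 with normexp background correction, and 3 with no filter, which let in Agtr1b. Mas1 lay between -1.07 and -0.90 there. At ZT14 the count stayed at 1, Mas1, in every alternative, with -1.66 to -1.49. Between times in saline the count was 1 in place of 0 with no filter, from Agtr1b, whose probes were below background. For ZT14 minus ZT2 over both treatments the count of members passing limma was 2 with an intensity trend and robust prior and 1 with normexp. With a pseudocount of 16 it was 0 of 1767 genes called, and with only genes above background on all 4 arrays 0 of 1636. The difference ZT14 minus ZT2 of Agtr2 was 0.12 and changed sign with the authors' values (-0.035), normexp (-0.12), a pseudocount of 16 (-0.052) and quantile normalization (-0.034), and that of Mas1 was 0.27 and became -0.058 with the mean over probes. Vancomycin minus saline of Atp6ap2 at ZT2 was 0.011 and became -0.0034 with normexp. For Enpep, ZT14 minus ZT2 with vancomycin was -0.046 and became 0.059 with the mean over probes. The cause of these sign changes was not tested. For vancomycin over both times 0 members passed in the 10 alternatives. The adjusted p of Mas1 for vancomycin ranged from 0.13 to 1.00 over the alternatives. Precision is limited by 1 array per group, and for Agtr2 and Agtr1b by signal near background. The injection time term already sets vancomycin against saline within each slide, and a block by replicate number could not be added, since the labels give none.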
